A study of Homo sapiens with 4 samples.

Results

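Cholesterol synthesis, uptake and export were followed through 32 genes in the RNA of 2 human bladder cancer cell lines in which SCD, the gene of the stearoyl-CoA desaturase that puts a double bond into saturated fatty acids, had been targeted. The members were chosen by name, with no threshold on their values, though earlier results of these data were known: 18 enzymes that build cholesterol, 4 genes that sense sterols, 5 genes of sterol uptake, transport and storage, and 5 genes of the LXR receptors and of sterol export and receptor turnover. All 32 were found in each line's table, out of 30148 genes for UMUC3 and 17752 for SW780 (32485 in either). There were 4 libraries, 1 in each group: UMUC3 with a control hairpin (shNT, genotype given as WT), UMUC3 with an SCD1 knockdown (shSCD1), SW780 with shNT and SW780 with shSCD1. Hairpins were delivered by lentivirus. UMUC3 cells were grown in MEM and SW780 cells in DMEM, both with 10% fetal bovine serum, so the medium and the line cannot be told apart. The labels do not say how many hairpins or clones stand behind a library, nor the time after infection.

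Cells make cholesterol from acetyl-CoA through mevalonate, isoprenoid phosphates, squalene and lanosterol. When sterols in the endoplasmic reticulum are scarce, SCAP carries the transcription factor SREBP2 (gene SREBF2) to the Golgi, where it is cut and released to switch on the synthesis enzymes and the uptake receptors; when sterols are plentiful, INSIG proteins hold SCAP back. Oxysterols that accumulate with surplus cholesterol activate the LXR receptors (NR1H2 and NR1H3), which raise the exporters ABCA1 and ABCG1 and the ubiquitin ligase MYLIP. Serum in the medium brings lipoprotein cholesterol, so cultured cells use both synthesis and uptake.

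A gene's level is given as CPM, its reads divided by the library's total and multiplied by 1000000, and a ratio is the log2 of shSCD1 over shNT after adding 1 CPM to each. A gene was compared in a line if at least one of that line's libraries gave it 1 CPM, 14063 in UMUC3 and 12880 in SW780. With 1 library in a group there was no replicate, and no test within a line was possible. The 95% intervals beside folds are exact Clopper-Pearson intervals of the reads and cover counting error only; in the text, "beyond counting error" means that this interval leaves out 1. The table columns are headed only first and second and were read as shNT and shSCD1 from the table's name and its fold change of second over first; every direction below would turn if that reading were wrong. SCD, the targeted gene, stood at 264 CPM in UMUC3 shNT and 59.6 CPM in UMUC3 shSCD1, and at 592 CPM and 92.1 CPM in SW780. Its reads were 4.44-fold lower in UMUC3 shSCD1 (4.22 to 4.67) and 6.43-fold lower in SW780 shSCD1 (6.16 to 6.71). Libraries held 22818368 to 34087871 reads, which allowed a gene with 0 reads up to 0.0880 to 0.131 CPM (a floor of 3 reads). The share of reads from mitochondrial transcripts was 4.23% and 6.02% in UMUC3 shNT and shSCD1, and 4.33% and 4.52% in SW780. With totals that left out these reads and those of genes found in only 1 line's table, the numbers of members above and below 0 were the same.

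The promoters of the members are shown as a description of the genes, and their part in the ratios was not tested. RefSeq promoter windows (GRCh38.p14), 250 bases before to 50 bases after the transcript start, were found for 28 of the 32 members by symbol. The stretches below lie upstream of annotated exons and run 5′ to 3′ on the gene's strand; capitals mark the letters CCAAT, or ATTGG, the same box read on the other strand. HMGCS1, LSS and MSMO1 are synthesis enzymes, STARD4 is a sterol carrier, LRP8 an uptake receptor and MYLIP the ligase, all described further on.
HMGCS1, chr5:43313513-43313662, minus strand: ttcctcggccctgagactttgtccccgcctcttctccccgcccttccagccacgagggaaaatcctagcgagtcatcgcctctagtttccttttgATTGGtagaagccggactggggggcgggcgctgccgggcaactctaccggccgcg
LSS, chr21:46228825-46228974, minus strand: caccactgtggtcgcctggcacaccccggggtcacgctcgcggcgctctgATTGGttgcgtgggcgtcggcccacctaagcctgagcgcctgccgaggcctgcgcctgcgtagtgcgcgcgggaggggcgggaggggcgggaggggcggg
MSMO1, chr4:165327473-165327622, plus strand: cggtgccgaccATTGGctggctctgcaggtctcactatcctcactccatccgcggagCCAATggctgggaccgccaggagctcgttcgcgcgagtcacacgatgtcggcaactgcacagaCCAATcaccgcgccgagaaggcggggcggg
STARD4, chr5:111512591-111512740, minus strand: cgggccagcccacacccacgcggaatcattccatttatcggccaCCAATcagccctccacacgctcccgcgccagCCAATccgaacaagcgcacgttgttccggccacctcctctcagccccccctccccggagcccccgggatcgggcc
LRP8, chr1:53328071-53328220, minus strand: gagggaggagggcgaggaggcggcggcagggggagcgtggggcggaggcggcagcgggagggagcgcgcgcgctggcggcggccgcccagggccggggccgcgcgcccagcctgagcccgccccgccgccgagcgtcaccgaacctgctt
MYLIP, chr6:16128936-16129085, plus strand: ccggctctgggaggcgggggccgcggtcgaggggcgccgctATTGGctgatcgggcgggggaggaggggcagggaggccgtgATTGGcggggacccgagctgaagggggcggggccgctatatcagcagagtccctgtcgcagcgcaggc
CCAAT boxes are bound by NF-Y, a factor known to work beside SREBP2 on sterol genes. A CCAAT box on either strand was found in the windows of 20 of the 28 members (71.4%), beside 34.6% of all 35116 promoter windows and 43.3% of the 11339 genes that were measured here and have a window. Among the 8 members with a window that take lanosterol to cholesterol, 7 had the box. MSMO1 shows 3 of them in the printed stretch, STARD4 and MYLIP show 2 each, and HMGCS1 and LSS show 1 each. LRP8 had none in its window. The 9-letter core of the sterol regulatory element, searched as TCACNCCAC on both strands, was found in 1 member, SREBF2 itself (TCACCCCAC, at −133 from the start), beside 1.13% of all windows and 1.47% of measured genes. Its shorter form CACCCCAC, which overlaps the same letters in SREBF2, was found there and in ABCA1, beside 2.79% of windows and 3.70% of measured genes. TCACGTGA, the E-box form of the element, was found in INSIG1, beside 0.980% of windows and 2.11% of measured genes. The DR4 element, the direct repeat bound by LXR receptors, was found in no member's window and in 0.0199% of all windows. These are matches of letters and describe the windows only; for 7 members with more than 1 start, a match in any window was counted.

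**Figure D1:**
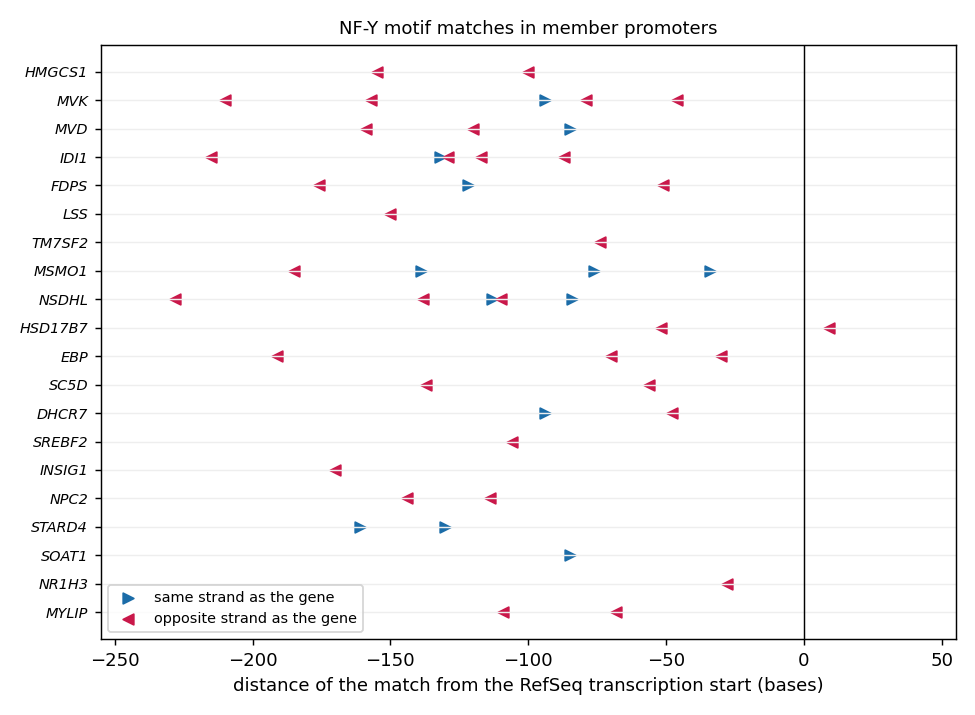
Distance in bases of each CCAAT match from the RefSeq transcription start (at 0, upstream to the left), for the 20 members with a match, with 1 row a member and 1 triangle a match; right-pointing triangles are on the gene's strand and left-pointing ones on the opposite strand, and windows of all starts of a gene are drawn together. Of the 48 matches, counted per window, 47 lie upstream of the start, 35 are on the opposite strand, and 14 of the 20 members have 2 or more.

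All synthesis enzymes were expressed in both lines, with levels per length that spread widely. In UMUC3 shNT the highest members per kilobase of exon were CYP51A1 (50.4 CPM per kb), which removes a methyl group from lanosterol, MSMO1 (38.7 CPM per kb), a methylsterol oxidase, and DHCR7 (29.6 CPM per kb), which makes the last reduction to cholesterol in one branch of the route. In SW780 shNT the order began with FDFT1 (89.8 CPM per kb), the squalene synthase, NPC2 (62.3 CPM per kb), which binds cholesterol in lysosomes, and CYP51A1 (42.1 CPM per kb). NR1H3, ABCA1 and ABCG1 filled the bottom of the UMUC3 order, at 0.580, 0.131 and 0 CPM per kb. STARD4 (2.18 CPM per kb), ABCG1 (1.00 CPM per kb) and ABCA1 (0.0129 CPM per kb) filled the bottom of the SW780 order. With 1 library a group, neighbours in these orders have no spread to be set against. Levels of the 2 lines came from separately made tables and are given side by side only.

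**Figure D2:**
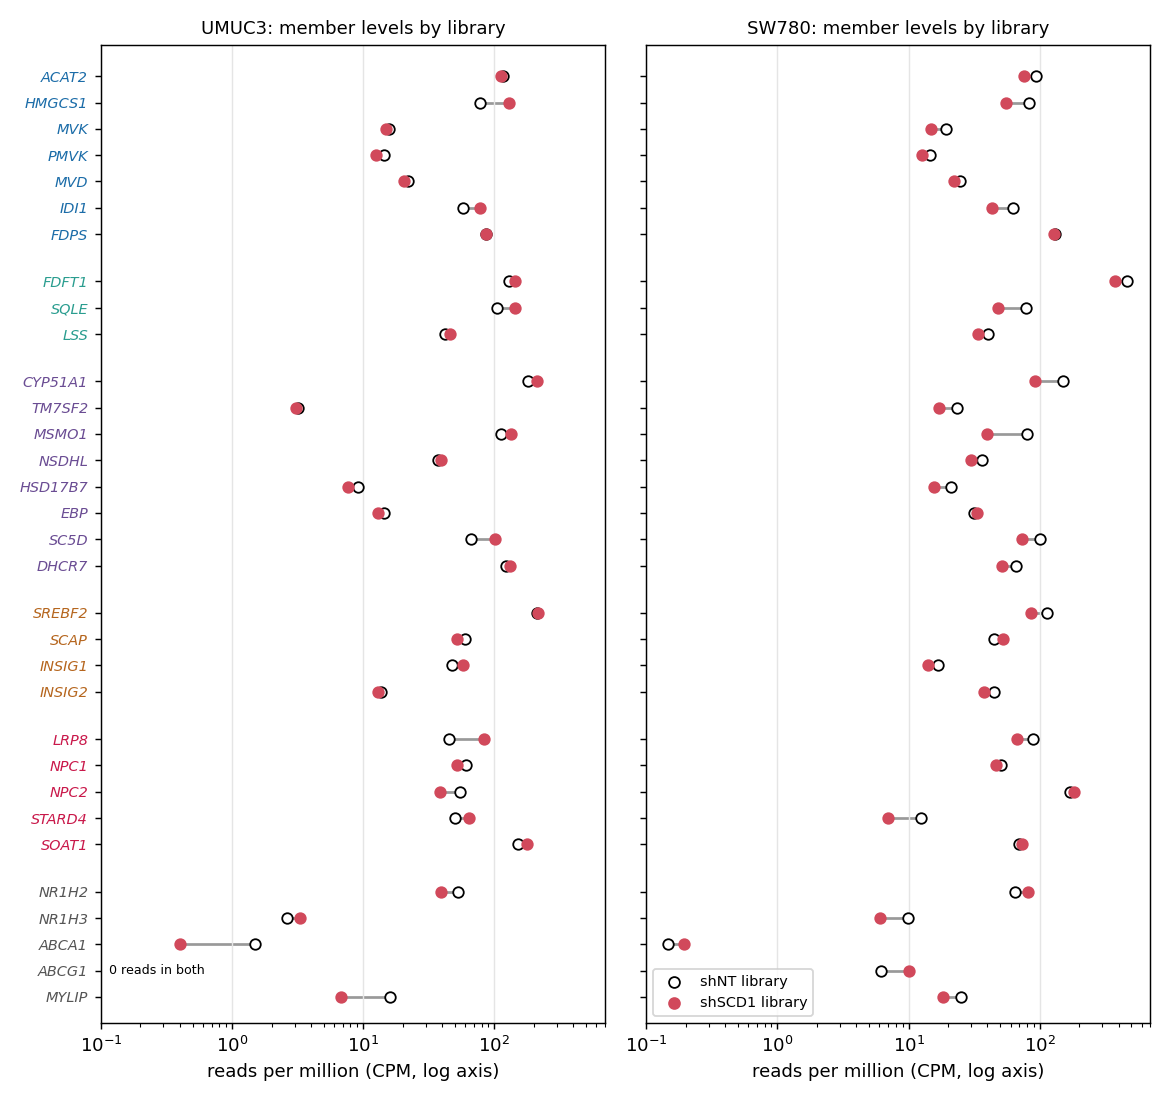
CPM of each of the 32 members in the shNT and shSCD1 libraries of UMUC3 and of SW780, on a log axis, with members ordered by role; 1 point is 1 library. In SW780 the shSCD1 points lie to the left of the shNT points for 17 of 18 synthesis enzymes, beside 51.5% of all genes tested. In UMUC3 11 of 18 lie to the right, near the 54.3% of all genes tested.

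In UMUC3 shSCD1, the enzymes HMGCS1 and SC5D were at least 1.5-fold higher, and the share of enzymes above 0 was near that of all genes. SC5D sat close to the 1.5-fold line, with a ratio of 0.59. Its log2 fold change in the authors' deposited table was 0.52, short of 1.5-fold. Of the 18 enzymes, 11 had a ratio above 0 and 7 below, near the 54.3% and 45.7% of all genes tested. By the counting intervals the enzymes leaned upward: 9 were higher and 1 lower beyond counting error, beside 35.9% and 29.6% of all genes. The median of the enzymes was 0.09 and that of all genes tested 0.04. The summed level of the enzymes was 1212 CPM in shNT and 1429 CPM in shSCD1. Over all 31 measured members, 17 were above 0 and 14 below (15 and 16 with TMM factors, DESeq2 size factors, centring on the median gene or the log2 fold change of the authors' deposited table), beside 54.3% and 45.7% of all genes tested. Beyond counting error, 13 members were higher and 7 lower, beside 35.9% and 29.6% of all genes, shares near the background. At 1.5-fold, 3 members were higher (HMGCS1, SC5D and LRP8) beside 10.1% of all genes, and 2 were lower (MYLIP and ABCA1) beside 6.86%, which is again near the background. None was 2-fold higher (2.47% of genes) and 1, MYLIP, was 2-fold lower (2.18%).

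In SW780 shSCD1, nearly the whole route from acetyl-CoA to cholesterol was lower. Of the 18 enzymes, 17 had a ratio below 0, with a median of −0.34 beside −0.01 over all genes tested, and EBP alone was above; their summed level was 1523 CPM in shNT and 1160 CPM in shSCD1. Over all 31 measured members, 25 were below 0 and 6 above, under each of the scalings tried, beside 51.5% and 48.5% of all genes. Beyond counting error, 23 members were lower and 4 higher, beside 29.8% and 28% of all genes. At 1.5-fold, 5 members were lower (SQLE, CYP51A1, MSMO1, STARD4 and NR1H3) beside 3.7% of all genes, and 1 was higher (ABCG1) beside 5.05%. MSMO1 was the 1 member 2-fold lower, beside 1.06% of all genes, and no member was 2-fold higher (1.48% of genes).

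By the GFOLD value of the authors' deposited table, which pulls the log2 fold change of genes with few reads to 0, 11 members were above 0 and 9 below in UMUC3, beside 25.8% and 34.9% of all genes tested. The authors' deposited table for SW780 had 4 members above 0 and 22 below, beside 25.7% and 26% of all genes. Of the 18 enzymes, 7 were above 0 and 3 below in UMUC3, and 0 above and 14 below in SW780.

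**Figure D3:**
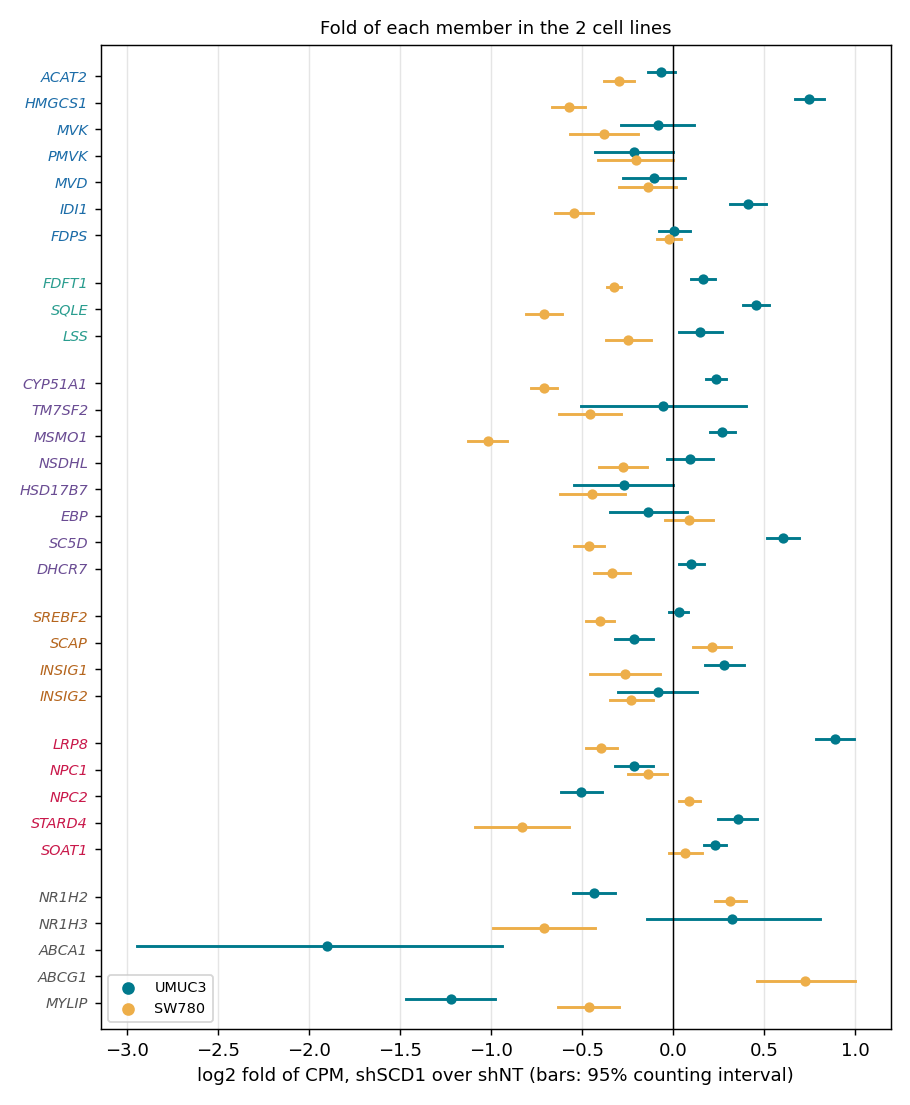
Fold of shSCD1 over shNT for each member in UMUC3 and in SW780, as log2 of the CPM ratio with nothing added, with bars for the 95% counting interval and members ordered by role. HMGCS1, SC5D and LRP8 lie farthest to the right in UMUC3 and MSMO1 lies farthest to the left among the enzymes in SW780; ABCG1 in UMUC3 and ABCA1 in SW780, under 1 CPM in both libraries, are not drawn.

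The mevalonate stage, from acetyl-CoA to farnesyl diphosphate, held 7 genes. HMGCS1 makes HMG-CoA, the substrate for mevalonate, and lies at chr5:43289395-43313512 (hg38, minus strand; its upstream stretch is printed above). It stood at 77.2 CPM in UMUC3 shNT and 130 CPM in UMUC3 shSCD1, and at 82.6 CPM in SW780 shNT and 55.5 CPM in SW780 shSCD1. The knockdown library was thus above its own control in UMUC3 and below it in SW780. Its reads were 1.68-fold higher in UMUC3 shSCD1 (1.59 to 1.78) and 1.49-fold lower in SW780 shSCD1 (1.40 to 1.59). IDI1, which isomerises isopentenyl diphosphate, had the same shape. It stood at 58.2 CPM in UMUC3 shNT, 77.3 CPM in UMUC3 shSCD1, 62.7 CPM in SW780 shNT and 43.0 CPM in SW780 shSCD1. That is 1.33-fold higher (1.24 to 1.42) in UMUC3 shSCD1 and 1.46-fold lower (1.36 to 1.57) in SW780 shSCD1.

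The other mevalonate genes moved little in UMUC3. ACAT2, the cytosolic thiolase that joins acetyl-CoA units, had a ratio of −0.07 in UMUC3 and −0.29 in SW780. MVK and PMVK, the kinases that phosphorylate mevalonate, had ratios of −0.08 and −0.20 in UMUC3 and −0.36 and −0.19 in SW780. For MVD, the decarboxylase that follows them, the ratios were −0.10 and −0.14, both within counting error. FDPS, the farnesyl diphosphate synthase, was level in both lines, at 86.6 and 86.9 CPM in UMUC3 and at 130 and 128 CPM in SW780. The median ratio of the 7 genes was −0.07 in UMUC3 and −0.29 in SW780.

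Squalene synthesis and cyclisation use 3 enzymes. All 3 were higher in UMUC3 shSCD1 and lower in SW780 shSCD1 beyond counting error, beside 10.6% of the genes tested in both lines. SQLE, the squalene epoxidase and a slow step of the route, stood at 104 CPM in UMUC3 shNT and 143 CPM in UMUC3 shSCD1, and at 78.3 CPM and 47.9 CPM in the SW780 libraries. Its reads were 1.37-fold higher (1.30 to 1.44) and 1.63-fold lower (1.53 to 1.75). FDFT1 was at 129 and 144 CPM in UMUC3 and at 467 and 373 CPM in SW780. LSS, the lanosterol synthase, was at 41.7 and 46.2 CPM in UMUC3 and at 40.5 and 34.1 CPM in SW780. The shift of FDFT1 and LSS in UMUC3 was small: the GFOLD values of the authors' deposited table were 0.0018 and 0.

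From lanosterol to cholesterol, 7 of the 8 enzymes were lower in SW780 shSCD1 beyond counting error, beside 29.8% of all genes tested. Their median ratio with EBP included was −0.43. MSMO1 (chr4:165327623-165343160, plus strand) oxidises methyl groups of sterols. It stood at 112 CPM in UMUC3 shNT, 135 CPM in UMUC3 shSCD1, 79.9 CPM in SW780 shNT and 39.4 CPM in SW780 shSCD1. The shSCD1 library was thus the higher one in UMUC3 and the lower one in SW780. Its reads there were 2.03-fold lower (1.89 to 2.18), and 1.21-fold higher (1.15 to 1.27) in UMUC3 shSCD1. The SW780 ratio sat on the 2-fold line and fell short of it with TMM factors, DESeq2 size factors, centring on the median gene and a pseudocount of 5 CPM. SC5D, a sterol desaturase, stood at 66.3 and 100 CPM in UMUC3 and at 101 and 72.9 CPM in SW780. The knockdown library was thus above its control in UMUC3 and below it in SW780, 1.52-fold higher (1.43 to 1.61) in UMUC3 and 1.38-fold lower (1.30 to 1.46) in SW780.

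CYP51A1 was at 181 and 212 CPM in UMUC3 and at 151 and 92.1 CPM in SW780, which is 1.64-fold lower (1.56 to 1.72) in SW780 shSCD1. DHCR7 was at 123 and 132 CPM in UMUC3 and at 65.5 and 51.8 CPM in SW780. NSDHL, which removes a carboxyl carbon with MSMO1, had a ratio of 0.09 in UMUC3, within counting error, and −0.27 in SW780. In SW780 all 3 were lower in the knockdown library. TM7SF2, a sterol reductase, was low in UMUC3 (3.20 and 3.07 CPM) and had a ratio of −0.44 in SW780. HSD17B7, a ketosterol reductase, had ratios of −0.24 and −0.42. EBP, the isomerase that moves a double bond in the sterol ring, was the exception in SW780, at 31.5 CPM in shNT and 33.5 CPM in shSCD1, a difference within counting error.

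Some of these levels depend on how reads were assigned, and the counting method is not given in the sources. In the GENCODE 29 annotation, 83.2% of the exonic bases of CYP51A1 also lie in other genes, the largest overlap being with AC000120.2 on the same strand. For ACAT2 the share is 52.3%, the largest overlap being with SOD2-OT1 on the opposite strand. FDPS has 8 named pseudogenes, CYP51A1 has 3 and HSD17B7 has 2. These 4 genes were set apart for having most of their exonic bases in other genes or a named pseudogene, and their values are uncertain. Without them, 21 of 27 measured members were below 0 in SW780 and 15 of 27 above 0 in UMUC3. Smaller overlaps were kept. In all, 9 members have more than 5% of their exonic bases in other genes. HMGCS1 (15.0%), IDI1 (14.8%) and LRP8 (10.3%) are among them, each with its largest overlap on the opposite strand.

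The ratios of the 4 sterol sensors ran from −0.21 (SCAP) to 0.27 (INSIG1) in UMUC3 and from −0.40 (SREBF2) to 0.21 (SCAP) in SW780. SREBF2, which encodes SREBP2, was at 212 and 216 CPM in UMUC3, a difference within counting error, and at 114 and 85.8 CPM in SW780, which is 1.32-fold lower (1.25 to 1.39). SCAP, its escort, went the other way: it stood at 60.1 and 51.8 CPM in UMUC3 and at 45.2 and 52.4 CPM in SW780, with ratios of −0.21 and 0.21. INSIG1, a retention protein that is itself a target of SREBP2, was at 47.8 and 58.1 CPM in UMUC3 and at 16.8 and 14.0 CPM in SW780, with ratios of 0.27 and −0.25. INSIG2, its relative, had ratios of −0.08, within counting error, and −0.23. The active, cut form of SREBP2 is a protein and was not measured by these libraries.

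Among the uptake, transport and storage genes, LRP8 and STARD4 had the pattern of the enzymes. LRP8, a lipoprotein receptor that binds apolipoproteins and reelin (chr1:53242364-53328070, minus strand), stood at 44.9 CPM in UMUC3 shNT and 83.0 CPM in UMUC3 shSCD1, and at 88.9 CPM and 67.6 CPM in the SW780 libraries. The control was the lower library in UMUC3 and the higher one in SW780. Its reads were 1.85-fold higher (1.72 to 1.99) in UMUC3 shSCD1, where 3.61% of all genes tested had a higher ratio, and 1.31-fold lower (1.24 to 1.40) in SW780 shSCD1. STARD4, a soluble carrier that moves cholesterol between membranes (chr5:111496033-111512590, minus strand), stood at 50.4 and 64.4 CPM in UMUC3 and at 12.4 and 6.97 CPM in SW780. It was 1.28-fold higher (1.19 to 1.37) and 1.78-fold lower (1.49 to 2.13).

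NPC1 and NPC2, which hand cholesterol out of lysosomes, did not share this shape. NPC1 was at 60.5 and 52.1 CPM in UMUC3 and at 50.8 and 46.1 CPM in SW780, a little lower in both knockdown libraries. NPC2 was at 54.6 and 38.5 CPM in UMUC3, 1.42-fold lower (1.31 to 1.54), and at 171 and 182 CPM in SW780. SOAT1, which esterifies cholesterol for storage, was at 152 and 178 CPM in UMUC3 and at 69.4 and 72.7 CPM in SW780, the latter within counting error.

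The LXR receptors and their targets held the weakest expressed member of each line, and they had no common direction. NR1H2, the widely expressed LXR, stood at 52.6 and 38.9 CPM in UMUC3 and at 65.4 and 81.3 CPM in SW780, which is 1.35-fold lower (1.25 to 1.46) and 1.24-fold higher (1.17 to 1.32). NR1H3, the other LXR, had 60 and 107 reads in UMUC3 (2.63 and 3.29 CPM, within counting error). In SW780 it had 340 and 156 reads (9.97 and 6.11 CPM), 1.63-fold lower (1.35 to 1.99). The 2 receptors thus lay on opposite sides of 0 within SW780.

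ABCA1, which loads cholesterol onto apolipoproteins at the cell surface, had 34 and 13 reads in UMUC3 (1.49 and 0.400 CPM), 3.73-fold lower with a wide interval of 1.92 to 7.70, and 5 reads in each SW780 library, under the minimum level. ABCG1, which passes cholesterol to larger lipoproteins, had 0 reads in both UMUC3 libraries; in SW780 it had 209 and 259 reads (6.13 and 10.1 CPM), 1.65-fold higher (1.37 to 1.99). Each line thus had reads worth comparing for a different one of the exporters. A difference in ABCG1 in UMUC3 or in ABCA1 in SW780 was not detectable at this depth.

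MYLIP, the ligase that marks lipoprotein receptors for degradation (chr6:16129125-16148248, plus strand), had the lowest ratio in UMUC3 with 1 CPM added, where the fold of ABCA1 without it was larger on far fewer reads, and was lower in both lines. It stood at 15.9 CPM (363 reads) in UMUC3 shNT and 6.82 CPM (222 reads) in UMUC3 shSCD1, and at 25.1 CPM (856 reads) and 18.2 CPM (465 reads) in SW780. Both knockdown libraries lay below their own control. Its reads were 2.33-fold lower (1.97 to 2.77) in UMUC3, where 1.70% of all genes tested had a lower ratio, and 1.38-fold lower (1.23 to 1.55) in SW780. With a pseudocount of 5 CPM its UMUC3 ratio of −1.11 became −0.82, short of 2-fold.

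Set side by side, the lines went apart beyond counting error at 15 members, among the enzymes and among the other roles. Of the 30 members measured in both lines, 12 were higher in UMUC3 shSCD1 and lower in SW780 shSCD1 beyond counting error (HMGCS1, IDI1, FDFT1, SQLE, LSS, CYP51A1, MSMO1, SC5D, DHCR7, INSIG1, LRP8 and STARD4), beside 10.6% of the 11152 genes tested in both. Of these 12, 9 are among the 18 enzymes, 2 among the 5 uptake, transport and storage genes and 1 among the 4 sensors. The opposite pattern was held by 3 members (SCAP, NPC2 and NR1H2) beside 9.58%. PMVK, NPC1 and MYLIP were lower in both beyond counting error, beside 10.4%, with the PMVK intervals touching 1 (1.00 to 1.35 and 1.00 to 1.33), and no member was higher in both, beside 10.7%. The remaining 12 were within counting error in at least 1 line.

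The UMUC3 ratio exceeded the SW780 ratio in 23 of the 30 members, beside 52.3% of all genes, and by at least 0.5 in 10, beside 13.4%. By direction alone, 16 members were above 0 in UMUC3 and below 0 in SW780, beside 26% of genes. The gap was 1.31 for HMGCS1, 1.27 for MSMO1, 1.26 for LRP8 and 1.15 for SQLE. Across the 30 members the ratios of the 2 lines had a Pearson r of −0.46 and a Spearman rho of −0.62, and across all 11152 genes both were 0.03. These describe genes of the same 4 libraries, which are not independent replicates. With 1 library per line and condition the difference between the lines could not be tested.

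**Figure D4:**
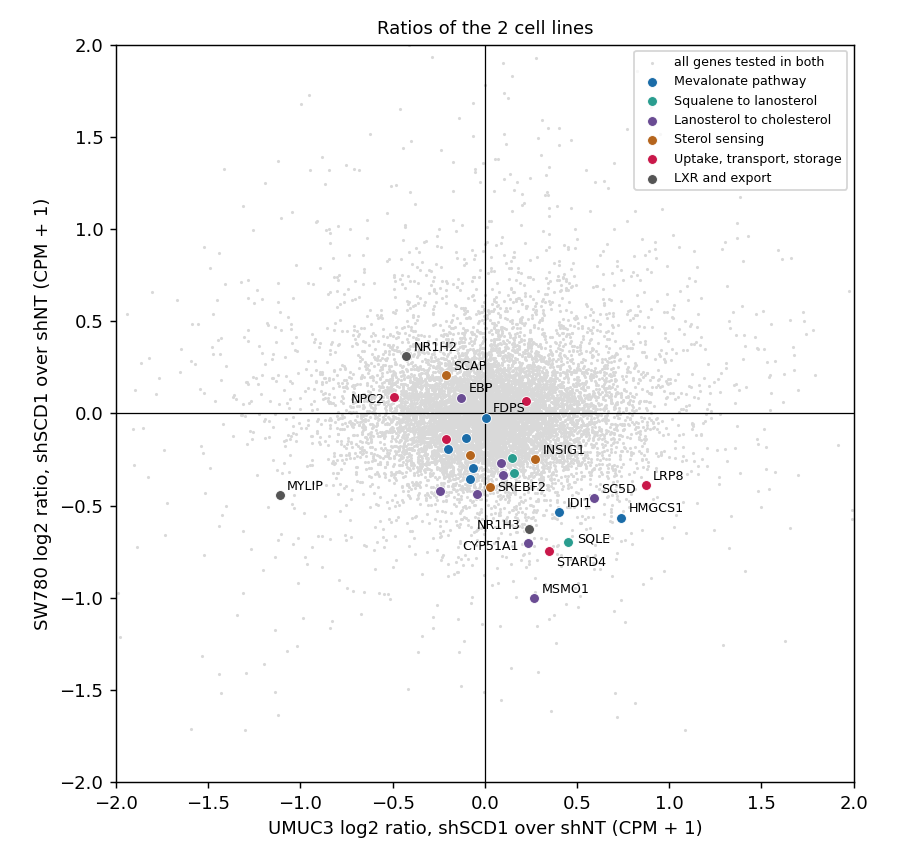
Ratio in UMUC3 (horizontal) against ratio in SW780 (vertical), both as log2 of shSCD1 over shNT with 1 CPM added, for all genes tested in both lines (grey) and for the 30 members measured in both, coloured by role. LRP8, HMGCS1, SC5D and SQLE lie at the lower right and MYLIP at the lower left; 58 genes outside the plotted range of 2 in either direction are not drawn.

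Fitted over both lines, no member was called. The limma fit of the 4 libraries with cell line as a term asks for a change shared by both lines and leaves 1 residual degree of freedom, with the lines standing in for replicates. It called 0 of 13079 genes at an adjusted p of 0.05 (Benjamini-Hochberg), the background being 0%, with 510 genes (3.9%) under an unadjusted p of 0.05. SCD itself was not called (limma adjusted p = 0.503), nor by edgeR (adjusted p = 0.667), but was by DESeq2 (adjusted p = 8.42e-24). The edgeR quasi-likelihood test called 0 genes with 426 (3.26%) under an unadjusted 0.05, and DESeq2 called 27 (0.206%, with 2.53% under an unadjusted 0.05), with no member among them. MYLIP was the 1 member under an unadjusted 0.05 by limma: its shared log2 change was −0.78 with a standard error of 0.23, and it was lower in both lines. Its limma adjusted p was 0.955, and 0.880 to 1 over the alternatives.

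The box-bearing promoters can be set beside these ratios as a description. The 20 members with a CCAAT box in the window had a median of 0.09 (UMUC3) and −0.38 (SW780), and the 7 measured in both lines with a window but no box had −0.20 and −0.19. Among members with a window, the box was in 5 of 6 mevalonate, 1 of 1 squalene and 7 of 8 lanosterol genes. It was in 2 of 4 sensors, 3 of 5 uptake, transport and storage genes and 2 of 4 LXR and export genes. Box and role thus cannot be told apart in these medians. HMGCS1, LSS, MSMO1, STARD4 and MYLIP, whose boxes are printed above, lie in the first set and LRP8 in the second. Of the 20 with a box, 13 were above 0 in UMUC3 and 17 below 0 in SW780. Of the 7 without, 2 were above 0 in UMUC3 and 5 below 0 in SW780. Over all genes tested these shares were 54.3% and 51.5%. The part of the box in the ratios was not tested. Members with a box and members without one were found on both sides of 0 in each line.

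Most other genes of sterol metabolism lay within 2-fold of shNT. Of 12 further genes of sterol sensing, none passed 2-fold in either line. The lowest in UMUC3 was PGRMC1, a sterol-binding membrane protein, at −0.71 (−0.06 in SW780). The highest in UMUC3 was TMEM97, a sterol-regulated membrane protein, at 0.24. It was at −0.39 in SW780, the same split as HMGCS1 and beyond counting error in both lines. The lowest in SW780 was MBTPS2, a protease that cuts SREBPs, at −0.45 (0.10 in UMUC3). The 11 genes that use isoprenoids for prenylation, dolichol and coenzyme Q ran from −0.22 (PDSS2) to 0.41 (PDSS1) in UMUC3 and from −0.25 (PGGT1B) to 0.20 (FNTB) in SW780. Their medians were 0.001 and 0.04, so the branches off the route stayed near the middle of all genes. Of 22 further genes of sterol traffic, 18 were measured in each line and 2 passed 2-fold, both lower in UMUC3 shSCD1, beside 2.18% of all genes there. CAV1, the coat protein of caveolae, was at 811 and 327 CPM in UMUC3 and at 733 and 978 CPM in SW780. NCEH1, which hydrolyses cholesterol esters, was at 347 and 168 CPM in UMUC3 and at 70.4 and 65.4 CPM in SW780.

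Of 7 further LXR targets, 4 were measured in each line and none passed 2-fold. The lowest was SMPDL3A, a phosphodiesterase, at −0.54 in UMUC3 and SREBF1, the gene of the SREBP that drives fatty acid synthesis, at −0.34 in SW780. For the 10 fatty acid genes under that factor, 9 of them measured in each line, the median was 0.07 in UMUC3 and −0.19 in SW780, with 6 above and 3 below 0 in UMUC3, near the 54.3% and 45.7% of all genes, and 2 above and 7 below in SW780, beside 48.5% and 51.5%. FADS1, a fatty acid desaturase, was at 148 and 218 CPM in UMUC3 and at 220 and 149 CPM in SW780, the same split as HMGCS1. FADS2, its neighbour in the pathway, had ratios of −0.20 in UMUC3, within counting error, and 0.27 in SW780.

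Markers of cell types also differed between the libraries, and not in the members' direction throughout. Summed urothelial markers were at 536 and 264 CPM in UMUC3 (12 of 15 found, 6 measured, 4 below 0; UPK1B, GRHL3 and KRT19 at 0 in both libraries) and at 12485 and 10257 CPM in SW780 (13 of 15 measured, 11 below 0). So most of the defining urothelial genes were weak or at 0 in UMUC3, where KRT18 stood at 372 and 170 CPM. In SW780 GRHL3 stood at 45.9 and 17.1 CPM. Some urothelial markers rose, the highest ratios being those of PPARG in UMUC3 (0.63) and EPCAM in SW780 (0.46). Over all genes tested, 45.7% were below 0 in UMUC3, and 51.5% were below and 48.5% above 0 in SW780. Fibroblast markers summed to 5.04 and 2.52 CPM in UMUC3 and to 202 and 316 CPM in SW780 (5 measured, 5 above 0, with FAP at 9.39 and 37.1 CPM; DCN and PDGFRB at 0). Endothelial markers summed to 0.833 and 0.154 CPM in UMUC3 and to 5.63 and 5.71 CPM in SW780, and of the blood markers CD68 alone was measured. Their part in the members' ratios was not tested, and in RNA of whole cultures fewer cells of a type and less RNA per cell cannot be told apart.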

How the data were processed

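Per the labels' protocols, TruSeq libraries were made from 3 µg of total RNA, 1 for each of the 4 groups, and sequenced on a NovaSeq. The submitters' processing notes name hg38. How reads were aligned and counted, and whether strand was used, is not given in the sources. The deposited signal columns are headed RPKM per the file headers, but hold read counts scaled to 1 total per library: of the values worth 20 reads or fewer, 100% came within 0.1 reads of a whole number of steps. Whole reads were recovered from these steps and turned into CPM. The authors' deposited log2 fold change and GFOLD (setting 0.01) were used as alternatives; the deposited empirical FDR was not used. Totals were 22818368, 32540576, 34087871 and 25549737 reads for UMUC3 shNT, UMUC3 shSCD1, SW780 shNT and SW780 shSCD1; intervals and the floor of 3 reads cover counting error only, as there were no molecular identifiers and reads are not independent molecules.

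Log2 ratios used CPM plus 1, for genes that reached 1 CPM in one or both libraries. Over both lines, limma 3.58.1 was fitted to log2(CPM + 1) of 13079 genes with cell line as a term; edgeR 4.0.16 (quasi-likelihood) and DESeq2 1.42.0 on the recovered reads were alternatives. Exon lengths and overlaps came from GENCODE 29. All 32 members are named by role, and of each further list the genes past 2-fold or, without any, the highest and lowest, some of which are not reported here. Members and lists were chosen with earlier results of these data known.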

Additional observations from a re-analysis of the deposited data

Results flagged for a closer look

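For 15 members the 2 libraries of one line differed beyond counting error in one direction and those of the other line in the opposite direction, on 1 library a group, and the difference between the lines was not tested. The UMUC3 ratio minus the SW780 ratio (log2, CPM plus 1) was 1.31 for HMGCS1, 1.27 for MSMO1, 1.26 for LRP8, 1.15 for SQLE, 1.09 for STARD4 and 1.05 for SC5D. It was 0.94 for IDI1 and 0.94 for CYP51A1, 0.52 for INSIG1, 0.48 for FDFT1, 0.43 for DHCR7 and 0.39 for LSS. These 12 were higher in UMUC3 shSCD1 and lower in SW780 shSCD1. For DHCR7 and LSS the UMUC3 interval lay close to 1, and the authors' GFOLD value there was 0. The reverse was seen for SCAP (−0.42), NPC2 (−0.58) and the LXR gene NR1H2 (−0.74).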

How the results depend on the processing

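Of 256 recomputed summary values 231 stayed within the limits set for them and 25 moved; of 671 recomputed member ratios 625 stayed and 46 moved. In UMUC3 the members above and below 0 went from 17 and 14 to 15 and 16 with TMM factors, DESeq2 size factors, centring and the log2 fold change of the authors' deposited table. With a pseudocount of 5 CPM the members 2-fold lower fell from 1 to 0 in each line, those 1.5-fold lower became 1 in UMUC3 and 3 in SW780, those 1.5-fold higher became 0 in SW780, and limma called 1 gene over both lines. A pseudocount of 0.5 CPM, and the log2 fold change of the authors' deposited table, gave 2 members 2-fold lower in UMUC3; a filter of 5 CPM gave 1 member 1.5-fold lower there. TMM factors, DESeq2 size factors and centring left 0 members 2-fold lower in SW780. The authors' deposited table gave a UMUC3 median for squalene to lanosterol of 0.0805 by log2 fold change and 0.0018 by GFOLD. By GFOLD, which is shrunk by construction, the UMUC3 uptake median was 0.074 with 1 member 1.5-fold higher; in SW780 the medians were −0.16 (mevalonate), −0.24 (lanosterol to cholesterol), −0.0611 (sensing), −0.0086 (uptake) and −0.20 (all members), with 0 members 2-fold lower, 0 members 1.5-fold higher and 3 members 1.5-fold lower. DESeq2 called 27 genes over both lines. Apart from the shrinkage and the pseudocounts, the cause was not tested. The fits over both lines pair the libraries by cell line; no further pairing was possible with 1 library a group. Depth limits ABCA1, ABCG1 and NR1H3 most.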
